A study of Mus musculus with 18 samples.

Results

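The genes described here carry the names of proteins of the cytosolic ribosome. They were chosen by name, as every symbol of the Rpl or Rps series without a pseudogene suffix plus Rplp0, Rplp1, Rplp2 and Rpsa, with a summed count of at least 180 over the 18 libraries. Of 55291 gene symbols, 90 had such a name and 83 reached the minimum, 34 named for the small subunit and 49 for the large subunit. Of the 83 members 3 (Rpl6l, Rps3a2 and Rps4l) are annotated as pseudogenes. No measured difference entered the choice. The 7 symbols below the minimum were Rpl36al (summed count 178), Rpl32l (121), Rps3a3 (107), Rpl3l (55), Rpl39l (5), and Rpl10l and Rps12l1 (0 each), while the members just above it were Rpl6l (242), Rps3a2 and Rpl24 (326 each) and Rps10 (362).

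All mice were C57BL/6J males, 6 weeks old when the virus was injected, and every group carried the same AAV. The vector AAV_DJ-GfaABC1D-EGFP-Rpl10a places EGFP fused to the ribosomal protein Rpl10a under an astrocyte promoter, and it was injected into right CA3. Anti-GFP immunoprecipitation of a right hippocampus homogenate gave the IP library, and the homogenate itself gave the input library. The AAV control group was collected 2 weeks after the virus, the KA group received 50 nL of 20 mM kainic acid 2 weeks after the virus and was collected 14 days later, and the PBS group received PBS in place of KA, with no times of its own stated. KA and AAV control therefore also differ in time since the virus and in a second injection. Neither can be told apart from KA in this design. In what follows, KA effect means the difference of the KA group from the control group named. Each group had 3 samples, each a pool of 3 to 4 hippocampi. The tag reaches only cells that took up the virus and use this promoter, while the input holds RNA of all cells in the homogenate. Per the study's methods, run 1 held KA #1, KA #2, AAV control #1 and AAV control #2, run 2 held KA #3 and AAV control #3, and run 3 held the PBS libraries, so that run and PBS group cannot be told apart.

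The cytosolic ribosome is built from a small subunit, which reads the mRNA, and a large subunit, which forms the peptide bonds and carries the acidic P-stalk that recruits elongation factors. Its proteins are mostly needed in equal numbers, and their mRNAs are among the most abundant of any cell. Most of these mRNAs begin with a C followed by a run of pyrimidines, the 5′TOP (terminal oligopyrimidine) element, through which mTOR and LARP1 adjust their translation to growth conditions. A TOP mRNA that is held back leaves polysomes and associates with few ribosomes, and ribosome capture measures association and not synthesis of the proteins.

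Pyrimidine runs were looked for around the annotated starts, because this element is the sequence feature that the family is known to share. RefSeq starts (GRCm38.p6) were found for 60 of the 83 members. A run of at least 8 C or T bases on the transcript strand, in the 30 bases from 10 before to 20 after the start, was present in 24 of them (40%), against 3517 of 27025 genes of the same table. On the opposite strand such a run was present in 3 of the 60 members (5%) and in 15.4% of all genes. The 5 windows printed here, 5′ to 3′ with the run in capitals, belong to some of the members named below and do not represent the 60. Among other members named below, Rps16 and Rps7 had no run, while Rpl15 and Rpl22l1 had one. Rps6 lies at chr4:86857348-86857377 (minus strand), Rps12 at chr10:23787190-23787219 (minus), Rps27 at chr3:90213629-90213658 (minus), Rpl18 at chr7:45718061-45718090 (plus) and Rps27l at chr9:66946076-66946105 (plus).
Rps6: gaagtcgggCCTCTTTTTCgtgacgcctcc
Rps12: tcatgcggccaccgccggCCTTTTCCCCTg
Rps27: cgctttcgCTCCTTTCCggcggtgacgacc
Rpl18: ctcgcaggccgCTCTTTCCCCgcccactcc
Rps27l: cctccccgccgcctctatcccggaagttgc
The window of Rps27l held no run of that length, while that of its paralog Rps27 did. No run was found in the window of either annotated start of Rpl10a. A run is a description of these letters, and its absence says only that these letters are not in the window.

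Library totals ranged from 7991681 to 16032180 counts. Astrocyte markers summed to between 6517 and 12100 FPKM (a count scaled to gene length and library total) in the IP libraries and to between 549.9 and 1453 FPKM in input, and all 10 were detected in every group. No library had a member at 0 counts. Libraries of run 2 stood apart from those of run 1. In KA IP #3 the members were a median of 0.56 higher in FPKM on the log2 scale than in KA IP #1 and #2. In KA input #3 they were 0.35 higher and in AAV control input #3 0.28 higher, and in AAV control IP #3 they differed by −0.01. In the same order of libraries, all genes differed by medians of −0.23, −0.15, −0.17 and −0.18, so the members were higher relative to all genes in each. Members with a gene length under 1000 bp were higher by a median of 0.92 in KA IP #3, against 0.46 for the longer ones. The shift was uneven among members. Rps29, a small subunit gene, read 184, 210 and 739 FPKM in the KA input libraries and 160, 162 and 459 FPKM in those of the AAV control. Results that rest on these libraries are given with and without them.

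The 83 members took about 1 to 2% of the counts of a library, and a smaller part of every IP library than of the input library from the same homogenate. In the AAV control group they took 1.36%, 1.34% and 1.69% of input counts and 1.09%, 1.16% and 1.10% of IP counts. In the PBS group the shares were 1.56%, 1.44% and 1.42% in input and 1.03%, 0.966% and 0.902% in IP. In the KA group they were 1.67%, 1.67% and 2.14% in input and 1.14%, 1.18% and 1.56% in IP. The 2 higher values of the KA group are both from sample #3. Within run 1, KA IP (1.14% and 1.18%) and AAV control IP (1.09% and 1.16%) overlapped, whereas both KA input libraries lay above both AAV control input libraries. Rplp1 (588 FPKM on average over the 18 libraries), Rpl41 (328 FPKM) and Rpl36 (298 FPKM) had the highest levels per gene length. The lengths behind FPKM are those of all exons of a gene joined (383 to 6266 bp, median 1769 bp) and are not those of the mature mRNA.

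**Figure D1:**
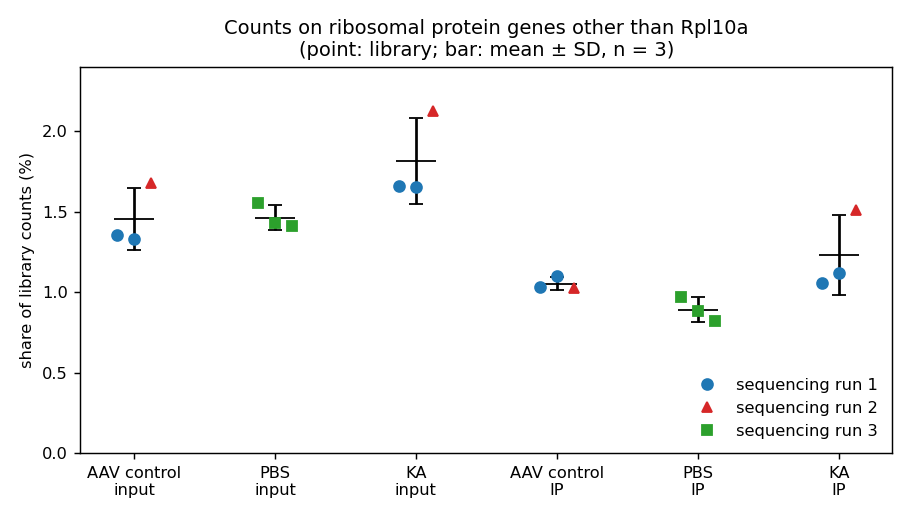
Share of each library's counts on the ribosomal protein genes other than Rpl10a, in percent, with 1 point per library, the shape showing the sequencing run and the bar the mean ± SD of 3 libraries. The run 2 libraries of KA input (2.12%), AAV control input (1.68%) and KA IP (1.51%) lie above the others of their groups, and that of AAV control IP (1.03%) does not.

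IP was first compared with input in each condition, which asks how far these mRNAs were recovered on tagged astrocyte ribosomes. The log2 ratio of IP to input was below 0 for 65 of 80 tested members in AAV control, 68 of 79 in KA and 73 of 79 in PBS, while Rpl10a and Rps27l were higher in IP in all 3 conditions. A member was called at an edgeR p under 0.05 after adjustment over all genes. In the AAV control group 18 of the 80 tested members were lower in IP and 3 were higher, against 20.3% and 19.4% of all genes tested. In the KA group 11 of 79 were lower and 2 higher, against 15.3% and 19.1% of all genes. In the PBS group 44 of 79 were lower and 2 higher, against 27.7% and 28.6% of all genes. Over the tested members the log2 ratio had a median of −0.33 in the AAV control group, −0.30 in the KA group and −0.55 in the PBS group, where the median of all genes was 0.01, 0.01 and 0.04. All 3 IP libraries lay below all 3 input libraries for 46, 38 and 72 members in the AAV control, KA and PBS groups, against 30.8%, 35.1% and 34.3% of all genes, and above them for 2 members in each, against 19.9%, 14.6% and 23.8%.

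IP and input of a sample share a homogenate, and with the sample as a block 40 members were lower and 5 higher in the AAV control group (30.9% and 30.4% of all genes), 50 and 2 in the KA group (25.3% and 27.6%) and 54 and 2 in the PBS group (29.9% and 31.2%). Without the run 2 libraries the counts were 36 lower and 13 higher of 82 in the AAV control group (31% and 31.7% of all genes) and 57 lower and 2 higher of 80 in KA (22.7% and 25.2%). In AAV control, leaving out IP #1, IP #2, input #1 or input #2 reduced the calls to between 6 and 7, where between 28.3% and 30.8% of all genes were called, and leaving out input #3 moved the median to −0.19. In KA, leaving out IP #1 or IP #2 gave 7 and 8 calls (23.7% and 26.8% of all genes) with medians of −0.15 and −0.19. Leaving out KA IP #3 gave 40 lower and 2 higher (18% and 21.2% of all genes) with a median of −0.66. Leaving out KA input #3 gave 9 lower and 2 higher (12.9% and 16.5% of all genes) with a median of −0.05, with 46 members below 0 and 33 above. In PBS, leaving out input #1 gave 29 lower and 2 higher (22.9% and 23.5% of all genes). The median stayed below 0 in each of these fits. Oligodendrocyte markers, too, were higher in KA IP (a sum of 1378 to 2618 FPKM) than in KA input (770.8 to 981 FPKM), with all 8 detected, while in AAV control they summed to 258.3 to 1119 FPKM in IP and 778.3 to 949 FPKM in input, and in PBS to 288.7 to 594.1 FPKM and 569.5 to 730.1 FPKM. Their part in these ratios was not tested. In bulk samples, fewer cells of a type and less RNA per cell cannot be told apart.

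**Figure D2:**
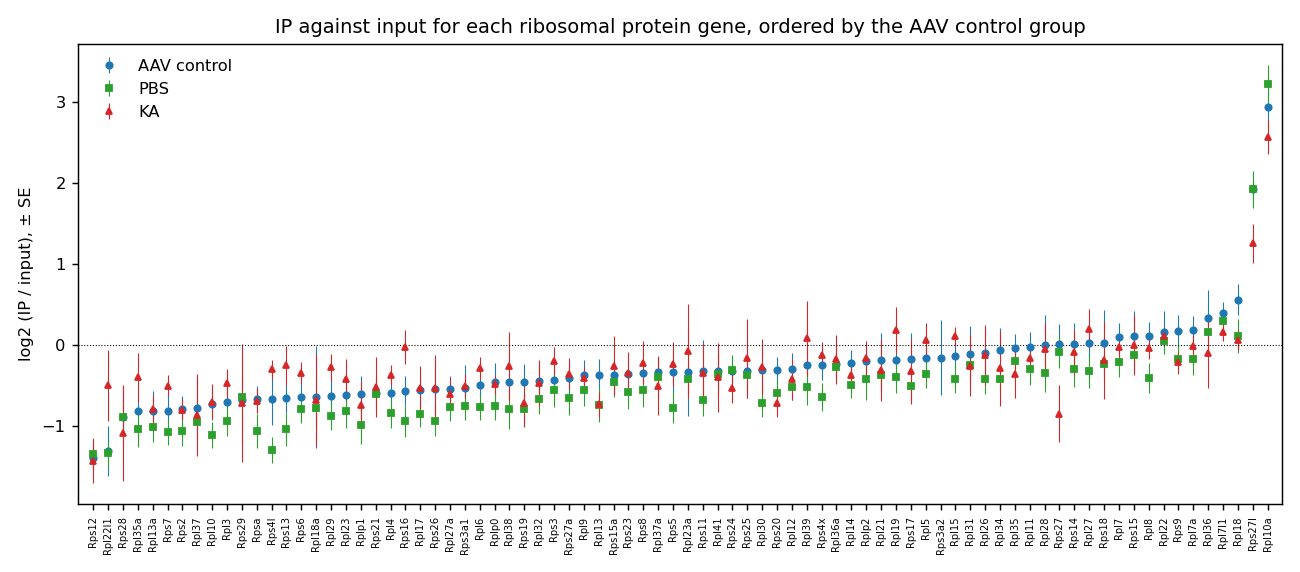
Log2 ratio of IP to input ± SE for each ribosomal protein gene tested in the AAV control group, ordered by that group, with 1 symbol per condition and 6 libraries per condition (edgeR). Most genes lie below 0, Rps12 is lowest in the AAV control group, and Rps27l and Rpl10a stand above the rest in all 3 conditions.

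Rpl10a, the large subunit protein that carries the EGFP tag, had the highest ratio of IP to input. It read 244, 239 and 320 FPKM in AAV control IP, 253, 338 and 341 FPKM in PBS IP and 343, 231 and 196 FPKM in KA IP. In input it read 40.8, 34.7 and 42.5 FPKM in the AAV control group, 35.2, 38.0 and 36.8 FPKM in the PBS group and 48.8, 46.7 and 53.8 FPKM in the KA group. IP and input did not overlap in any condition. The ratio was 6.79 ± 0.778 in AAV control, 8.44 ± 1.11 in PBS and 5.20 ± 1.70 in KA (SD, n = 3 pairs), with log2 ratios of 2.93 ± 0.25, 3.22 ± 0.23 and 2.56 ± 0.21 (SE, edgeR adjusted p = 0.000162, 1.15e-06 and 0.000103). The KA effect on Rpl10a in IP was −0.04 ± 0.26 against AAV control (adjusted p = 0.945) and −0.29 ± 0.27 against PBS (0.427). The gene lies at chr17:28328471-28331033 (GRCm38, plus strand). The transgene carries an Rpl10a coding sequence, so these counts cannot be divided into transgene and endogenous mRNA.

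Rps27l, a small subunit paralog of Rps27 known as a p53 target, was the other member enriched in IP in every condition. It read 165, 180 and 178 FPKM in AAV control IP against 52.9, 53.3 and 46.9 FPKM in the matched input. In the PBS group it read 156, 164 and 131 FPKM in IP and 51.6, 42.0 and 38.3 FPKM in input. In the KA group it read 171, 155 and 229 FPKM in IP and 86.5, 80.6 and 106 FPKM in input. The groups of IP and input libraries never overlapped, and the ratio was lowest in the KA group, whose input was highest. The log2 ratio of IP to input was 1.93 ± 0.15 in AAV control (edgeR adjusted p = 0.000146), 1.92 ± 0.23 in PBS (2.03e-05) and 1.25 ± 0.24 in KA (0.00476). Its parent Rps27 had ratios near 1 in the AAV control and PBS groups (0.946 ± 0.223 and 0.855 ± 0.0626, SD, n = 3) and of 0.492 ± 0.0490 in the KA group.

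Rps12, a small subunit protein, had the lowest ratio in all 3 conditions. It read 15.8, 19.9 and 15.6 FPKM in AAV control IP and 46.5, 49.0 and 52.4 FPKM in input, with log2 ratios of −1.38 ± 0.17 in AAV control (edgeR adjusted p = 0.000616), −1.42 ± 0.27 in KA (0.00469) and −1.34 ± 0.19 in PBS (9.71e-05). The exons of Rps12, at chr10:23785183-23787275 on the minus strand, overlap 3 small nucleolar RNA genes on the same strand, and whether reads of these entered the values was not tested. Rpl22l1, the paralog of Rpl22, was also lower in IP of the AAV control group (−1.30 ± 0.31, adjusted p = 0.0132) and of the PBS group (−1.33 ± 0.15, 1.81e-05), while in the KA group it had −0.49 ± 0.44 (0.427). Without AAV control IP #1 the call for Rpl22l1 in the AAV control group was lost. With the sample as a block it was called in KA too (−0.55 ± 0.10, 0.00198).

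Of the P-stalk genes, Rplp0 was lower in IP in the KA and PBS groups (−0.48 ± 0.12 and −0.75 ± 0.17), Rplp1 was lower in the PBS group (−0.98 ± 0.23, with −0.60 ± 0.23 in AAV control and −0.73 ± 0.29 in KA), and Rplp2 was not called in any (−0.19 ± 0.17 in AAV control, −0.16 ± 0.21 in KA and −0.42 ± 0.25 in PBS). Rpsa, the laminin receptor protein of the small subunit, was lower in all 3 conditions (−0.67 ± 0.16, −0.68 ± 0.16 and −1.06 ± 0.21 in AAV control, KA and PBS). Rps6, whose protein is phosphorylated downstream of mTOR, was lower in AAV control and PBS (−0.64 ± 0.17 and −0.78 ± 0.17) and had −0.34 ± 0.14 in KA. The AAV control calls for Rpsa and Rps6 were lost without any 1 of IP #1, IP #2, input #1 and input #2, and the KA call for Rplp0 without KA IP #1, KA IP #2 or KA input #1. Rpl18 was higher in IP of the AAV control group (0.56 ± 0.19, edgeR adjusted p = 0.0488), a call that was lost without IP #1 or IP #2 and without any 1 of the input libraries. Rps28, the third lowest in the AAV control group, had −0.88 ± 0.39 (0.11). Small and large subunits had medians of −0.36 and −0.29 in AAV control, −0.34 and −0.28 in KA and −0.64 and −0.42 in PBS.

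Members with and without a pyrimidine run in the window around the start were set side by side as a description. A run counted wherever it lay in that window, and that of Rps12, for example, began after the start. The sets therefore do not show which transcripts begin with a run. In the AAV control group the 23 tested members with a run had a median log2 ratio of IP to input of −0.22 and the 35 without a run −0.36. In the KA group the medians were −0.29 and −0.34, and in the PBS group −0.42 and −0.57. The median with a run was the higher one in all 3 conditions, and the values of both sets overlapped widely, from −1.38 to 0.56 with a run and from −0.88 to 2.93 without one in the AAV control group.

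KA was then compared with the AAV control in input, which asks what differed in the whole hippocampus 14 days after KA. The later collection and the second injection are part of this difference. Of 80 tested members 78 had a positive log2 fold change, with a median of 0.32 where the median of all genes was −0.03. Only Rps27l was called, against 3.54% of all genes called higher and 0.944% called lower. It read 86.5, 80.6 and 106 FPKM in KA input and 52.9, 53.3 and 46.9 FPKM in AAV control input, without overlap (log2 fold change 0.85 ± 0.17, edgeR adjusted p = 0.0314). All 3 KA libraries lay above all 3 AAV control libraries for 31 members and below them for 0, against 12.2% and 10.4% of all genes.

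Within run 1, with 2 libraries a group, 55 of 82 members were higher in KA input and 1 lower, against 20.7% and 20.9% of all genes, and the median was 0.30. Of the lists followed as context below, 56 of 77 oxidative phosphorylation genes were higher in this fit and 1 lower (median 0.34). Of mitochondrial ribosomal proteins 32 of 77 were higher and 0 lower, and of other 5′TOP genes 13 of 21 and 1. Of ribosome biogenesis genes 11 of 55 were higher and 3 lower, and of the mTOR and LARP1 axis 6 of 23 and 3. With run as a covariate 35 of the members were higher and 0 lower (9.58% and 6.43% of all genes), and with the sample number as a block 16 and 0 (6.76% and 3.42%). Examples in run 1 were Rplp0 (0.81 ± 0.08, edgeR adjusted p = 1e-08), Rps27l (0.65 ± 0.09, 4.41e-06), Rpl29 (0.56 ± 0.08, 4.35e-06) and Rps6 (0.36 ± 0.07, 0.000188). The member called lower in run 1 was Rpl22 (−0.22 ± 0.08, 0.0416). Rplp0 read 178 and 170 FPKM in KA input and 108 and 91.7 FPKM in AAV control input of run 1. In run 2 it read 165 and 149 FPKM, a smaller difference. Other members at the ends of the range over all runs were Rps3a2 (0.68 ± 0.39) and Rpl41 (0.67 ± 0.29) above and Rps4l (−0.19 ± 0.27) and Rpl22 (−0.08 ± 0.13) below, none of them called. Without AAV control input #3 the count over all runs was 26 higher and 0 lower (13.1% and 10.7% of all genes), with a median of 0.52. Without any other single library it was 0 and the call for Rps27l was lost, where between 1.23% and 3.05% of all genes were called, and without KA input #3 the median fell to 0.07. Microglia markers summed to between 1892 and 2645 FPKM in KA input and to between 131.6 and 314.5 FPKM in AAV control input, with all 10 detected in both groups. The part of these cells in the higher levels of the members was not tested.

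In IP the same comparison asks what changed on astrocyte ribosomes. The small subunit genes Rps16 and Rps6 and the large subunit genes Rpl29 and Rpl15 were higher in KA, and 0 members were called lower. These 4 of the 79 tested members compare with 10.4% of all genes called higher and 9.74% called lower. Rps16 read 74.8, 73.8 and 98.8 FPKM in KA IP and 48.0, 51.7 and 38.8 FPKM in AAV control IP (log2 fold change 0.92 ± 0.21, edgeR adjusted p = 0.0204). Rps6 read 153, 171 and 136 FPKM against 115, 114 and 80.1 FPKM (0.64 ± 0.17, 0.0360). In both genes every KA library lay above every AAV control library. Rpl29 had a log2 fold change of 0.78 ± 0.20 (0.0335) and Rpl15 of 0.52 ± 0.16 (0.0495). The median over the members was 0.27, with 72 above 0, and the median of all genes was −0.02. All KA libraries were above all AAV control libraries for 17 members and below them for 0, against 16.8% and 20.2% of all genes.

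The size of the positive median in KA IP depended on the run 2 libraries. Without KA IP #3 the median was −0.02, with Rps16 called higher and Rps27 called lower (7.67% and 5.4% of all genes), and within run 1 it was 0.04. In run 1, 19 of 80 members were higher and 5 lower, against 23.7% and 22.3% of all genes. Rps16, Rps6, Rpl29 and Rpl15 were among the 19, with log2 fold changes of 0.64 ± 0.10 for Rps16 (edgeR adjusted p = 0.000624), 0.57 ± 0.10 for Rps6 (0.00136), 0.77 ± 0.13 for Rpl29 (0.000785) and 0.46 ± 0.10 for Rpl15 (0.00447). The 5 lower members were Rps27, Rpl22, Rpl18, Rpl37 and Rpl36. Of these only Rps27 was also lower in KA IP #3 than in AAV control IP #3. In these run 2 libraries Rpl22 read 18.2 FPKM in KA and 13.6 FPKM in AAV control, and Rpl18 41.6 and 33.7 FPKM. Rpl37 read 68.9 and 51.9 FPKM there, and Rpl36 432 and 361 FPKM. With run as a covariate 20 were higher and 1 lower (20.1% and 20.2% of all genes), and with the sample number as a block 17 and 0 (17.3% and 17.2%). Both of these fits keep the run 2 libraries, and the median of the members was 0.22 in each. Leaving out KA IP #1 or KA IP #2 left the call for Rps16 (9.31% and 8.59% of all genes called) with medians of 0.45 and 0.40. Leaving out AAV control IP #1 or #2 gave 0 calls (10.6% and 9.49% of all genes), and leaving out AAV control IP #3 gave 9 higher and 0 lower (17.1% and 16.8% of all genes). Rpl22l1 (0.98 ± 0.41, 0.134) and Rpl19 (0.78 ± 0.30, 0.107) had the largest fold changes beside Rps16 and were not called. Oligodendrocyte markers summed to between 1378 and 2618 FPKM in KA IP and to between 258.3 and 1119 FPKM in AAV control IP, and neuron markers to between 280.8 and 384.4 FPKM against 161.5 to 200.1 FPKM. All 8 and all 10 of these markers were detected in both groups, and their part in the levels of the members was not tested.

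**Figure D3:**
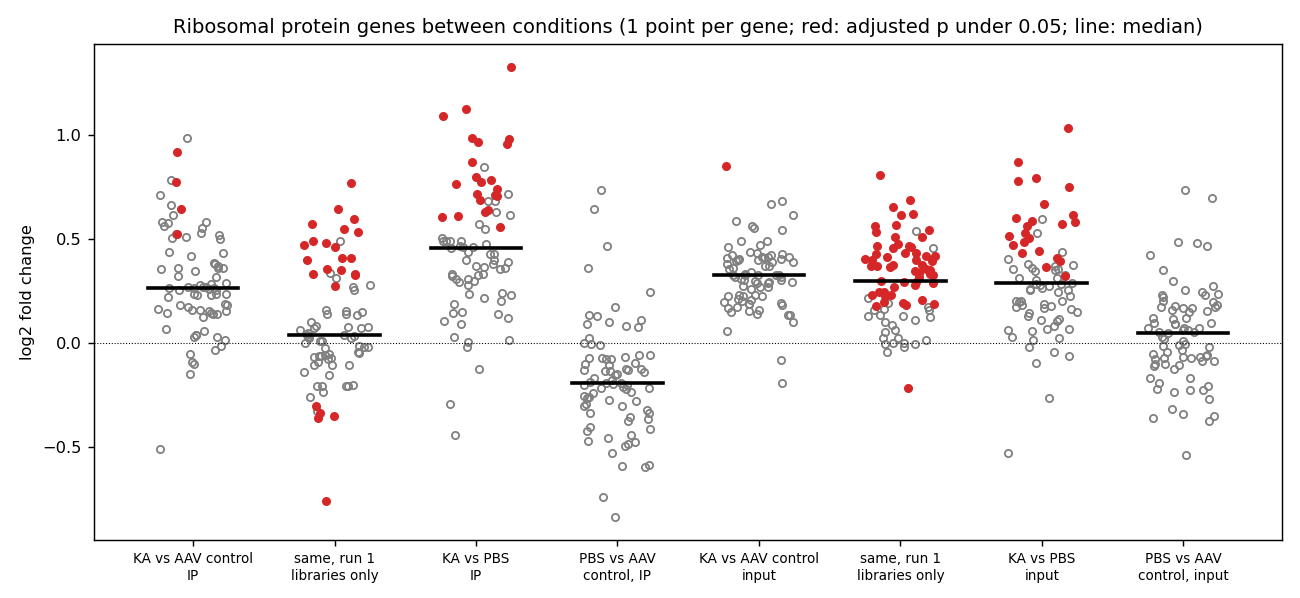
Log2 fold changes of the ribosomal protein genes between conditions, with 1 point per gene, in red where the edgeR adjusted p was under 0.05, and the median as a line. The median of KA against AAV control in IP falls from 0.27 to 0.04 when only run 1 is used, while in input it is 0.32 and 0.30.

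Rps27 had the lowest log2 fold change of the tested members in KA IP, also against PBS. It read 50.5, 50.4 and 79.3 FPKM in KA IP and 76.0, 103 and 91.3 FPKM in AAV control IP, with an overlap of 1 KA library. Over all runs its log2 fold change was −0.51 ± 0.27 (edgeR adjusted p = 0.231). Within run 1 it was −0.76 ± 0.14 (0.00139) and with run as a covariate −0.56 ± 0.17 (0.028). In input it read 101, 94.1 and 181 FPKM in KA and 83.3, 87.0 and 123 FPKM in AAV control, and its log2 fold change was 0.37 ± 0.33 (0.635). The ratio of Rps27l to Rps27 in FPKM, a description of 2 levels per gene length, was 3.39, 3.08 and 2.89 in KA IP, 2.17, 1.74 and 1.95 in AAV control IP and 1.62, 2.09 and 1.78 in PBS IP, so that the KA IP libraries lay above all others. In input it was 0.860, 0.857 and 0.584 in KA, 0.635, 0.613 and 0.381 in AAV control and 0.484, 0.469 and 0.409 in PBS. For the other pairs, the ratio of Rpl22l1 to Rpl22 was 0.645, 0.664 and 1.78 in KA IP and 0.290, 0.414 and 0.891 in AAV control IP, highest in the run 2 libraries, and 0.952, 1.09 and 1.13 in PBS IP. Rpl7l1 stayed between 0.132 and 0.258 of Rpl7 and Rps4l between 0.192 and 0.554 of Rps4x over the 18 libraries.

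**Figure D4:**
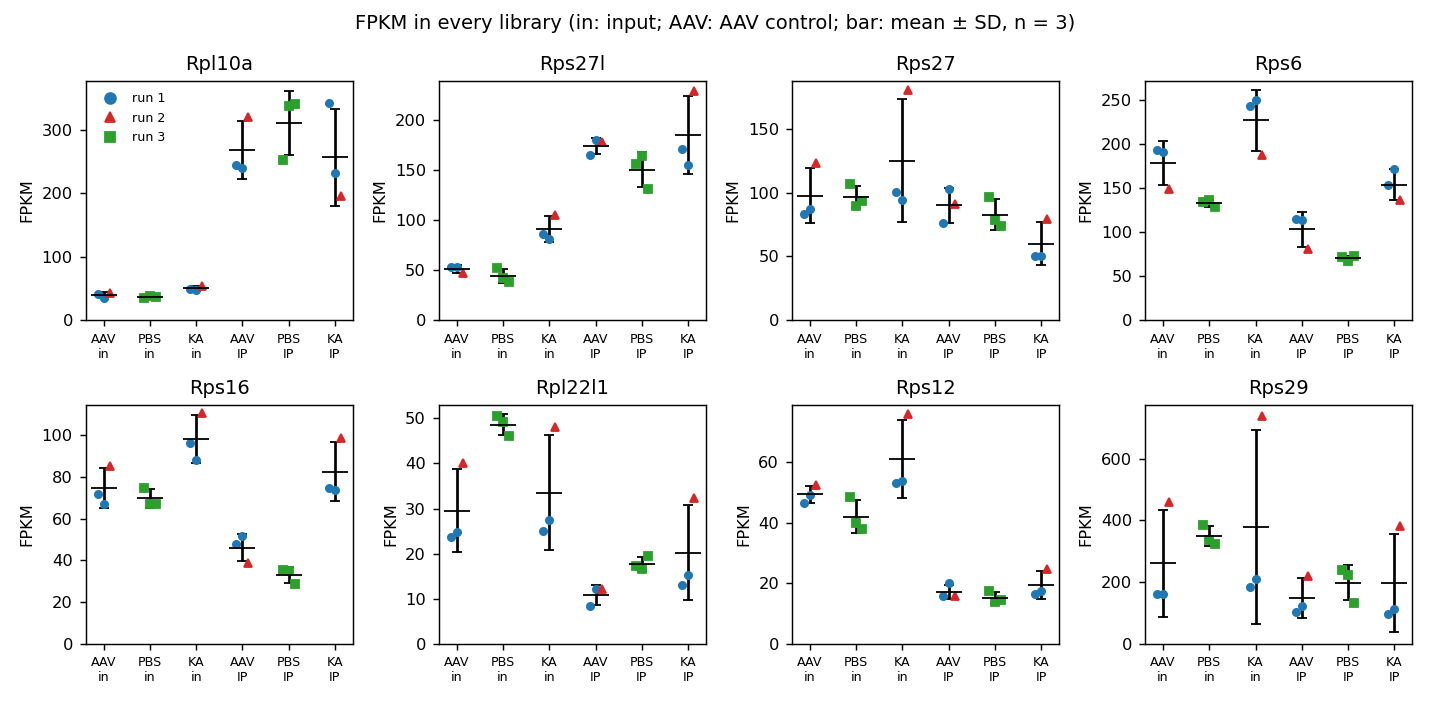
FPKM in every library for 8 ribosomal protein genes, by group, with the shape showing the run and the bar the mean ± SD of 3 libraries. Rpl10a and Rps27l are higher in IP than in input, Rps12 is lower in IP, and Rps29 (739 FPKM in KA input #3) is highest in the run 2 libraries of KA and AAV control input.

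KA was compared with PBS in the same way. In IP 22 of 79 were higher and 0 lower, against 18.2% and 18.9% of all genes, with a median of 0.46 where that of all genes was −0.01. In input 23 of 80 were higher and 0 lower, against 15.5% and 12.2% of all genes, with a median of 0.29. The largest log2 fold changes in IP were those of Rps16 (1.33 ± 0.23, edgeR adjusted p = 0.00171), Rps6 (1.13 ± 0.18, 0.0011) and Rps7 (1.09 ± 0.17, 0.00108), a small subunit protein that binds MDM2. Rps6 read 71.2, 67.3 and 72.2 FPKM in PBS IP, and Rps16 read 35.4, 34.9 and 28.4 FPKM, below every KA IP library. Of the P-stalk genes, Rplp0 (0.80 ± 0.17) and Rplp2 (0.87 ± 0.26) were higher in IP, and Rplp1 had 0.31 ± 0.27. The call for Rplp2 was lost without KA IP #3, PBS IP #1 or PBS IP #3. In input the largest was Rps27l (1.04 ± 0.18, 0.0022), followed by Rps9 (0.87 ± 0.13, 0.000872), Rpl37a (0.79 ± 0.23, 0.0282) and Rps3a1 (0.78 ± 0.13, 0.00159), of which Rpl37a was lost without PBS input #2 or PBS input #3.

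Oligodendrocyte markers summed to 1378 to 2618 FPKM in KA IP and 288.7 to 594.1 FPKM in PBS IP, and microglia markers to 1892 to 2645 FPKM in KA input and 189.5 to 216.5 FPKM in PBS input, with every marker detected, and their part in these changes was not tested. The same KA libraries also entered the comparisons with AAV control, and PBS was sequenced in a run of its own. Without KA IP #3 the count in IP was 16 higher and 6 lower (18.6% and 18.1% of all genes) with a median of 0.18, and without PBS IP #1 or PBS IP #3 it was 14 higher (14.6% and 15.4% of all genes). Without KA input #3 the count in input was 25 higher and 15 lower (22.8% and 21% of all genes) with a median of 0.09, and without PBS input #2 or PBS input #3 it was 9 and 12 higher (9.70% and 10% of all genes). In IP, all 3 KA libraries lay above all 3 PBS libraries for 42 members and in input for 38, against 22.7% and 18.4% of all genes, and they lay below for 0 members in both, against 23.3% and 17.5%.

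PBS and AAV control, the comparison of both control groups, gave 0 calls among the members in edgeR. An unadjusted p under 0.05 was found for 8 of 79 members in IP, against 1153 of all 10667 genes, and for 5 of 80 in input, against 901 of 10924. DESeq2 called 0 members in both and 0.15% and 0.275% of all genes, limma-voom called 0 members and 0% of all genes, and edgeR called 0% of all genes. The median was −0.19 in IP, where 22 members lay below in all libraries and 1 above (8.53% and 4.88% of all genes), and 0.05 in input, where 8 lay below and 3 above (5.9% and 5% of all genes). Rps4l, annotated as a transcribed processed pseudogene on chromosome 6 and paired with Rps4x here by its symbol, had the lowest value in IP, with 15.9, 18.2 and 18.2 FPKM in PBS against 35.7, 25.2 and 34.8 FPKM in AAV control (−0.84 ± 0.24, edgeR adjusted p = 0.436). Rpl22l1 read 50.6, 49.2 and 46.1 FPKM in PBS input and 23.7, 24.7 and 40.1 FPKM in AAV control input (0.74 ± 0.24, 0.561), without overlap. Without PBS IP #3 the median in IP was −0.07, and in that library the members differed from PBS IP #1 and #2 by a median of −0.17 (log2), where all genes differed by 0.31. Over single libraries left out, the median in input ran from −0.08 to 0.18. Without AAV control IP #3 there were 3 members higher and 4 lower in PBS (4.89% and 5.35% of all genes), and without AAV control input #3 there were 30 higher and 6 lower (18.3% and 18.2%).

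A last comparison asked if the response to KA had the same size in both kinds of library. Against AAV control 0 of 79 members were called with edgeR, where 7.19% of all genes had a higher and 5.99% a lower effect in IP. Only 2 members had an unadjusted p under 0.05, against 2472 of all 9180 genes, and DESeq2 and limma-voom called 0 members, against 17.9% and 12.8% of all genes. With the homogenate as a block 3 members had a higher effect in IP and 4 a lower one (18.5% and 17.3% of all genes). In a fit without the run 2 libraries, added after seeing the data, 26 of 80 had a lower effect in IP and 0 a higher one. This compares with 16.7% and 17.7% of all genes, and the median of the members was −0.19. Examples were Rps27 (−0.95 ± 0.16, edgeR adjusted p = 0.000484), Rpl36 (−0.80 ± 0.14, 0.000712), Rpl18 (−0.76 ± 0.12, 0.000236) and Rps27l (−0.66 ± 0.13, 0.0013). Rpl18, for instance, read 54.4 and 52.8 FPKM in AAV control IP #1 and #2 and 42.3 and 40.8 FPKM in KA IP, while in input it read 33.8 and 35.7 FPKM and 48.5 and 47.0 FPKM. In run 2 the direction in IP was reversed for Rpl18, with 33.7 FPKM in AAV control IP #3 and 41.6 FPKM in KA IP #3. Its input values there were 35.1 and 43.8 FPKM. Without KA IP #3 alone Rps27l was called lower, and without AAV control IP #3 alone Rpl18 was.

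Against PBS, 2 of 79 members had a larger KA effect in IP than in input and 0 a smaller one, against 10.8% and 14.7% of all genes. They were Rps4l (difference of log2 fold changes 0.92 ± 0.19, edgeR adjusted p = 0.00427) and Rps16 (0.83 ± 0.29, 0.0497). With the homogenate as a block 11 members had a larger and 3 a smaller effect in IP (16.4% and 21% of all genes). Among the 14 were Rps27 (−0.79 ± 0.16, 0.00233), Rps27l (−0.75 ± 0.18, 0.00667) and Rpl10a (−0.73 ± 0.25, 0.0328) on the lower side. Leaving out single libraries gave between 1 and 4 calls. Without KA IP #3 there were 2 on either side (Rps4l and Rps7 higher, Rps27 and Rps27l lower), and without PBS IP #3, either one of KA input #1 and #2 or any 1 PBS input library, 1 call was left. The call for Rps4l held without any single library, and that for Rps16 was lost without KA IP #3, PBS IP #1, PBS IP #3, KA input #1, KA input #2 or any 1 of the PBS input libraries.

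**Figure D5:**
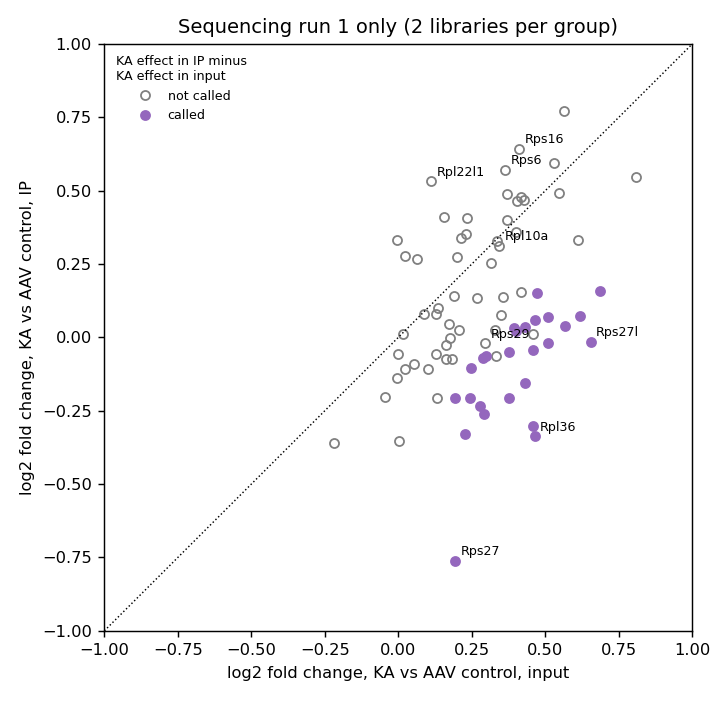
Log2 fold change of KA against AAV control in IP, plotted against that in input, for 80 ribosomal protein genes within run 1 (2 libraries per group), with the diagonal of equal effects. The 26 genes called in the test of the difference, in purple, all lie below the diagonal, with Rps27 farthest from it. This fit was added after seeing the data, and with all libraries 0 genes of the family were called.

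Reads of near-identical copies limit what single members show. Symbols of 318 pseudogenes named after members held between 0.0130% and 0.0288% of the counts of a library. Of the 83 members 80 are annotated as protein coding and Rpl6l, Rps3a2 and Rps4l as pseudogenes, 27 overlap exons of another gene on the same strand and 19 on the opposite strand, and 30 contain small nucleolar RNA genes. Rpl24 shares its locus with a predicted gene listed at 0 and had 326 counts in all. Rpl24, Rps10, Rpl6l and Rps3a2 did not pass the filter of FPKM above 1 in KA against AAV control IP, so that 79 of the 83 members were tested there, and Rps3a2 also passed in input.

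Other genes of protein synthesis were followed as context. For comparison, 10.4% of all genes were called higher and 9.74% lower in KA IP against AAV control, and 23.7% and 22.3% within run 1. In IP against input, 19.4% of all genes were higher and 20.3% lower in AAV control. The shares were 19.1% and 15.3% in KA and 28.6% and 27.7% in PBS. Of 21 tested genes of translation factors and other 5′TOP mRNAs, 2 were higher and 0 lower in KA IP against AAV control, Tpt1 (log2 fold change 1.04 ± 0.18) and Eif3e (0.55 ± 0.15), a subunit of initiation factor eIF3, and the median was 0.32. In IP against input of the AAV control group 3 were lower and 1 higher, and the median was −0.39, against −0.33 for the ribosomal proteins. Of 53 genes of ribosome biogenesis, 4 were higher and 2 lower in KA IP against AAV control, among them the assembly factors Nvl (−1.08 ± 0.19) and Riok1 (−1.04 ± 0.20), and the medians in that comparison and in IP against input of the AAV control group were 0.04 and 0.03. The 20 tested genes of the mTOR and LARP1 axis had a median of −0.07 in KA IP against AAV control, and within run 1 3 of 21 were higher and 2 lower. The 77 tested mitochondrial ribosomal proteins, of a separate ribosome, had a median of 0.25 in IP against input of the AAV control group, with 13 higher and 2 lower, and of 0.20 in KA, with 13 higher and 1 lower, but of −0.06 in PBS, with 8 higher and 19 lower. The 77 tested oxidative phosphorylation genes had medians of 0.21 in KA IP and 0.24 in KA input against AAV control, with 2 called higher in IP, Cox7a1 (2.34 ± 0.62) and Atp5g1 (1.45 ± 0.36). In run 1 alone the medians of this list were −0.03 in IP, with 14 of 78 higher and 13 lower, and 0.34 in input. In KA IP #3 the oxidative phosphorylation genes were 0.84 (log2) above KA IP #1 and #2 at the median, against 0.56 for the cytosolic ribosomal proteins.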

How the data were processed

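The authors deposited, for each of 18 libraries, a file of whole-number read counts and a file of FPKM values for 55291 gene symbols. Per the submitters' processing notes, reads were aligned to mm10 with STAR, and featureCounts and edgeR were used. Versions, annotation, strandedness and the handling of reads with several positions are not given in the sources used here. In the deposited files, FPKM is the count over the library total and a fixed length, which lay within 1% of the joined exons of GENCODE for all 83 members.

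From the deposited counts, edgeR 4.0.16 (R 4.3.3) fitted quasi-likelihood models with TMM factors to all genes with FPKM above 1 in every library of a comparison. P-values were adjusted by Benjamini-Hochberg over all genes tested, and a gene was called at an adjusted p under 0.05, with no minimum fold change. Samples were grouped by the labels. Comparisons used 6 libraries, and the differences of KA effects 12. Standard errors were obtained as the absolute log2 change over the square root of F. The fit was checked on simulated counts. Spread is that between 3 pooled samples per group, and with 2 libraries a group in run 1 it rests on these 4 libraries. Library totals of 7991681 to 16032180 counts set counting error only.

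Members, lists and alternatives were chosen with earlier results of these data known. Named were Rpl10a, the P-stalk genes, Rps6, paralog pairs, the 3 members of highest mean FPKM and the 3 highest and 3 lowest in 4 comparisons. Rps9, Rpl15, Rpl29, Rps29, Rpl37, Rpl37a, Rps3a1 and others outside this rule were named after their values were seen. Alternatives were DESeq2 1.42.0, limma-voom (limma 3.58.1), library totals without TMM, no FPKM filter, pseudogene counts added, single libraries left out, the sequencing run as a covariate, run 1 alone and a replicate block. Leaving out run 2 in the IP against input and interaction fits was added after seeing the data. Residuals of IP and input from the same homogenate correlated at 0.155 to 0.752. Those of same-numbered KA and AAV control samples correlated at 0.348 to 0.551. Samples of different number were not compared, and #3 was the run 2 sample in both of these groups. The KA and AAV control values therefore cannot tell a pairing by number from the shared run. KA and PBS, and PBS and AAV control, shared only a replicate number. Start windows are from RefSeq GRCm38.p6 and gene positions from GENCODE on GRCm38.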

Additional observations from a re-analysis of the deposited data

Results flagged for a closer look

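The KA effect against PBS differed between IP and input for 2 members by the interaction test. For Rps4l the difference was 0.916 on the log2 scale (SE 0.19, edgeR adjusted p = 0.00427). KA IP read 36.8, 36.8 and 30.3 FPKM against 15.9, 18.2 and 18.2 FPKM in PBS IP, and KA input 48.2, 56.4 and 43.6 FPKM against 40.8, 45.1 and 55.3 FPKM in PBS input. For Rps16 the difference was 0.832 (SE 0.29, 0.0497), with KA input at 98.3 ± 11.4 FPKM against 69.8 ± 4.54 FPKM in PBS input (SD, n = 3) and no overlap. Without the run 2 libraries both were called (Rps4l 0.94 ± 0.22, 0.00946, and Rps16 0.79 ± 0.25, 0.0413). Rps4l is annotated as a transcribed processed pseudogene, and whether reads of Rps4x mRNA entered its counts was not tested.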

How the results depend on the processing

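Members called are given with the share of all genes called in the same fit, which moved as well. KA against AAV control in IP had 4 calls (20.1% of all genes), 8 with DESeq2 (26.3%), 2 with library totals (18.1%), 8 without the FPKM filter (12.4%), 17 with the replicate block (34.5%), 21 with run as a covariate (40.2%) and 24 in run 1 (46.0%). In input it had 1 (4.49%), 2 with DESeq2 (8.12%), 16 with the replicate block (10.2%), 35 with run as a covariate (16.0%) and 56 in run 1 (41.6%). KA against PBS in IP had 22 (37.0%), and 14 with the replicate block (31.3%), where samples share only a number. PBS against AAV control in input had 0 (0%), and 3 without the filter (0.756%). IP against input had 21 in the AAV control group (39.7%), 12 without the filter (20.1%), 45 with the replicate block (61.3%) and 49 without run 2 (62.7%), and 13 in the KA group (34.4%), 21 with DESeq2 (35.9%), 32 with library totals (36.6%), 52 with the replicate block (52.8%) and 59 without run 2 (47.9%). Library totals moved the median of all genes to −0.15 and −0.22 in these 2 comparisons. The KA effect in IP minus input had 0 against AAV control (13.2%), 1 without the filter (5.16%), 7 with the replicate block (35.8%) and 26 without run 2 (34.4%), and 2 against PBS (25.5%), 6 with DESeq2 (28.7%), 1 with limma-voom (23.5%), 8 without the filter (8.84%) and 14 with the replicate block (37.4%). Without the filter more genes were tested. The cause of the other changes was not tested. The block changed no other count of calls by over 1.5 times.

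Leaving out single libraries gave 0 to 9 calls (8.59% to 33.8% of all genes) for KA against AAV control in IP, 14 to 22 (25% to 36.7%) for KA against PBS in IP, 0 to 7 (0% to 10.2%) for PBS against AAV control in IP, and 0 to 26 (1.23% to 23.8%), 9 to 40 (15.6% to 43.9%) and 0 to 36 (0% to 36.5%) for the same comparisons in input. It gave 6 to 20 (28.3% to 42.1%), 7 to 42 (22.5% to 39.3%) and 31 to 48 (46.5% to 58.2%) for IP against input in AAV control, KA and PBS, and 0 to 1 (8.57% to 17.8%) and 1 to 4 (17.4% to 27.6%) for the KA effect in IP minus input against AAV control and PBS. Against PBS, Rps28 went from 0.11 to −0.73 in IP without KA IP #3 (−0.73 to 0.45 over single libraries), and in input Rps28 went from 0.36 to −0.35 (−0.35 to 0.61) and Rpl39 from 0.18 to −0.43 (−0.43 to 0.44) without KA input #3. Of the settings of single named genes, 2127 kept direction and side of the threshold, 160 newly passed it, 89 lost it and 3 reversed. With the 10 most abundant genes left out of the total, the mean share of counts was 1.60%, 1.42% and 1.26% in KA, AAV control and PBS IP and 2.15%, 1.77% and 1.77% in input. With 3 pooled samples a group and PBS in a run of its own, differences within the spread of these samples were not detectable, and run cannot be told apart from the PBS group.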
